A study of Mus musculus with 10 samples.

Results

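Gland myoepithelial cells were compared with gland luminal cells of the mouse sweat gland, using the 2 arrays whose titles name myoepithelial cells and the 2 whose titles name luminal cells, 4 of the 10 arrays of the series. The myoepithelial group and the luminal group share everything else that the labels give: wild-type genotype, female sex, CD1 background, paw pads as the source, and purification of the cells by fluorescence-activated cell sorting before RNA extraction. The age of the mice, the surface markers of the sort and the number of animals behind an array are not stated, and each population has biological replicates numbered 1 and 2. The other 6 arrays, of duct basal cells, duct suprabasal cells and palmoplantar epidermis, entered the estimate of the spread between arrays. They also entered the choice of probe sets, the filter on low values and the rule for naming genes. Those of duct basal cells and epidermis also served to choose a set of luminal genes. The comparison asks which transcripts set the outer and the inner layer of the secretory coil apart, and it is described here with emphasis on receptors, ligands, transcription factors, ion transport and metabolism.

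The secretory coil of a sweat gland is a bilayer. Myoepithelial cells lie on the basement membrane, are of epithelial origin and contract like smooth muscle. Luminal cells face the lumen and secrete the primary sweat by moving chloride and other ions, with water following. Contraction of smooth muscle type depends on calcium release, on cyclic nucleotide and G-protein signals, and on serum response factor with its cofactors, which bind CArG boxes near contractile genes.

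Values are MAS5 signal, a linear array intensity on which every array has a trimmed mean of 500, so a level can be set against the same gene on another array but not against another gene. Median signal was 111 and 96.3 on myoepithelial arrays 1 and 2, and 94.3 and 92.7 on luminal arrays 1 and 2. Of 12393 genes with a named probe set, 9310 passed the filter on low values and were tested with limma, on the scale of log2(signal + 12), which understates differences of dim genes. Differences are given on that scale as myoepithelial minus luminal, with a standard error (SE) and a p adjusted over all genes tested, and a gene passed at an adjusted p under 0.05.

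Myh11, the heavy chain of smooth muscle myosin, had a signal of 18782 and 19074 on the myoepithelial arrays, against 23.3 and 45.7 on the luminal arrays. Cnn1, the actin-binding protein calponin, had 12770 and 20511 in myoepithelial cells, against 71.4 and 127 in luminal cells. Both contractile markers were high on both myoepithelial arrays, and on the luminal arrays Myh11 lay below the 40th percentile and Cnn1 on either side of the median. Best2, a bestrophin anion channel, had 240 and 9.9 in myoepithelial cells, against 1726 and 2435 in luminal cells. Aqp5, the apical water channel of secretory epithelia, had 3693 and 786 in myoepithelial cells, against 16771 and 24287 in luminal cells. These markers therefore fitted the labels, but for Best2 and Aqp5 myoepithelial array 1 lay well above array 2. Slc12a2, which was also listed as a luminal marker, did not pass, and its values are given with the channels below.

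The same gap between the myoepithelial arrays ran through luminal genes in general. For 185 genes the luminal mean was 10 times the signal of myoepithelial array 2 or more, and on array 1 their signal exceeded that on array 2 by a median of 16.3% of the luminal level, with quartiles of 13.3% and 20.3%. Low values on array 2 were what chose these genes, so a gap in this direction is partly built in. With the arrays exchanged, however, only 1 gene met the same rule. When genes were instead chosen without either myoepithelial array, with a luminal mean 10 times that of duct basal cells and of epidermis or more, 69 genes had a median of 18.6% of the luminal level on myoepithelial array 1 and 3.24% on array 2, and 65 of the 69 were higher on array 1. That choice was made after the data were seen. In the other direction, genes of myoepithelial cells exceeded luminal array 1 on luminal array 2 by a median of only 1.92% of the myoepithelial level (289 genes). Whether luminal cells or their RNA were present in the sample of myoepithelial array 1 was not tested, and fewer cells of a type and less RNA per cell cannot be told apart on such arrays. The difference without array 1 is therefore given beside each gene lower in myoepithelial cells whose signals and difference are both given.

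**Figure D1:**
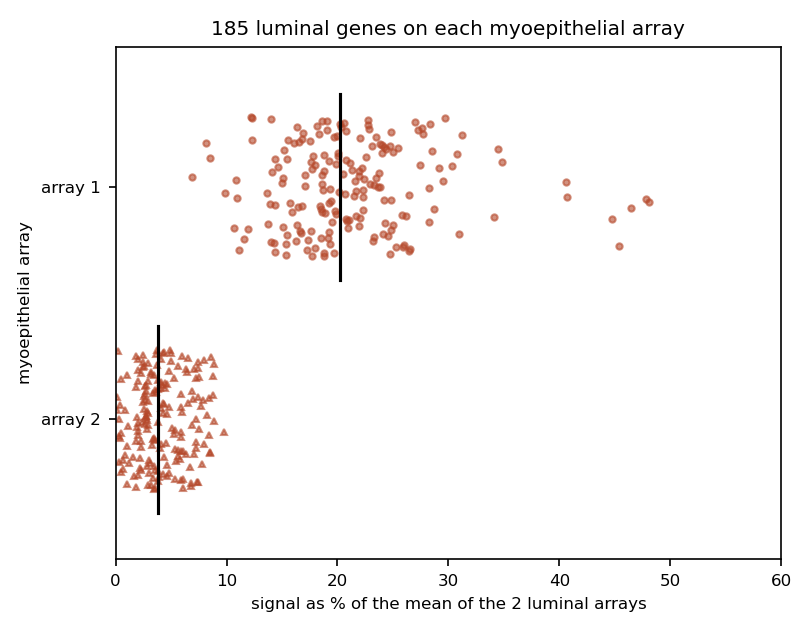
Signal of the 185 genes whose luminal mean was 10 times that of myoepithelial array 2 or more, on each myoepithelial array, as a percentage of the mean of the 2 luminal arrays (horizontal axis). Each point is a gene, the vertical position within a row carries no meaning, and the black lines mark the medians, 20.3% on array 1 and 3.83% on array 2.

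Across all genes, 2897 of 9310 passed (31.1%), 1540 of them higher (16.5%) and 1357 lower (14.6%) in myoepithelial cells, and 2158 differed at least 2-fold. The large differences lay mostly on the myoepithelial side. At least 16-fold differences were found in 148 genes higher and 13 genes lower in myoepithelial cells. Without myoepithelial array 1 these counts were 160 and 119, so the shortage of large luminal differences rested on that array, and the share of all genes that passed was 22.9%. Without myoepithelial array 2 the counts of such differences were 143 and 0, and 15.5% of all genes passed. Without luminal arrays 1 and 2 the shares that passed were 17.7% and 17.1%. Of the genes lower in myoepithelial cells 79.4% were brighter on myoepithelial array 1 than on array 2, against 38.1% of the genes higher in myoepithelial cells and 52.9% of all genes tested. For 307 of the higher genes both luminal arrays lay at or below the 40th percentile of the array, where the size of a difference depends on values near background, and the same held on both myoepithelial arrays for 113 of the lower genes. For a gene whose difference passed but did not pass once any of the 4 gland arrays was left out, the highest adjusted p of these 4 fits is given as its leave-out p. Beside the counts of a list, its counts in these fits are given as leave-out counts, first without myoepithelial array 1, then without myoepithelial array 2, luminal array 1 and luminal array 2. Fewer of all genes passed in each of these fits, in both directions. Leave-out counts are therefore not to be read against the shares of all genes in the main fit.

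Beyond the contractile genes, the 12 largest differences on the myoepithelial side included genes of quite different roles. Igfbp2, a secreted binding protein of insulin-like growth factors, had 7701 and 14311 in myoepithelial cells, against 21.7 and 53.4 in luminal cells (log2 difference 7.81, SE 0.57, adjusted p = 4.26e-05). Fhod3, a formin that assembles actin in muscle sarcomeres, had 7205 and 9513 in myoepithelial cells, against 20.6 and 30.2 in luminal cells (7.80, SE 0.31, adjusted p = 3.63e-06). Both were dim on the luminal arrays. Igfbp2 was not particular to myoepithelial cells, with a mean of 20698 in epidermis, while Fhod3 had a mean of 556 in duct basal cells and 35.6 in epidermis. The receptor Ackr3, the ligand Pdgfc, the Wnt inhibitor Sfrp1 and the calcium-related genes Pcp4 and Casq2 were also among the 12, beside Myh11, Cnn1, Mylk, Lama3 and Col17a1.

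On the luminal side the 12 largest differences were smaller in the fit, and their size depended on which myoepithelial array was used. Mucl2, a mucin-like secreted protein, had 86.8 and 1.9 in myoepithelial cells, against 589 and 1945 in luminal cells (-4.87, SE 0.97, adjusted p = 0.00534). Chl1, a neural cell adhesion molecule of the L1 family, had 218 and 14.5 in myoepithelial cells, against 2314 and 1782 in luminal cells (-4.71, SE 0.88, adjusted p = 0.00413). Pkp2, a desmosomal plakophilin, had 288 and 2.2 in myoepithelial cells, against 1689 and 1521 in luminal cells (-4.63, SE 1.18, adjusted p = 0.0161). Without array 1 the differences of Mucl2, Chl1 and Pkp2 were -6.29, -6.27 and -6.83, and without array 2 they were -3.46, -3.15 and -2.43. The leave-out p was 0.0511 for Mucl2 and 0.0775 for Pkp2. Ceacam10 (-4.18), Slc25a48 (-4.14) and Sidt1 (-4.03, with a leave-out p of 0.0858) followed, with Best2, Cldn7, the proton pump subunits Atp6v1b1 and Atp6v0a4 and the transcription factors Foxa1 and Foxi1.

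Members of 22 functional lists, 948 different genes tested in all, were then counted, of which 426 passed. On the myoepithelial side the highest shares of members that passed, against 16.5% of all genes, were those of integrins and adhesion receptors (52.9%), growth factor ligands (51.5%), the TGF-beta, activin and BMP family (42.1%), calcium handling (37.5%), cyclic nucleotide and G-protein regulators (35.4%), receptor tyrosine kinases (35.3%), and both the smooth muscle, basal and mesenchymal factors and the homeobox and T-box genes (30.2% each). The other 14 lists lay between 2.6% and 24.2%. On the luminal side, against 14.6% of all genes, they were those of glycolysis, glycogen and pentose phosphate genes (57.9%), acid-base transport (48.4%), potassium and chloride channels (44.4%), cholesterol genes (44.0%), lipid genes (34.5%) and the respiratory chain (33.8%), and the other 16 lists lay between 4.65% and 24.6%. Lists with shares near the background in both directions were the G-protein-coupled receptors (18.2% higher, 9.09% lower), nuclear receptors (14.3% higher, 9.52% lower) and genes of ER translocation, folding and vesicle export (17.1% higher, 15.7% lower). The median log2 difference of all genes was 0.08, and -0.04 after quantile normalization, so a list median is to be read against that shift.

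**Figure D2:**
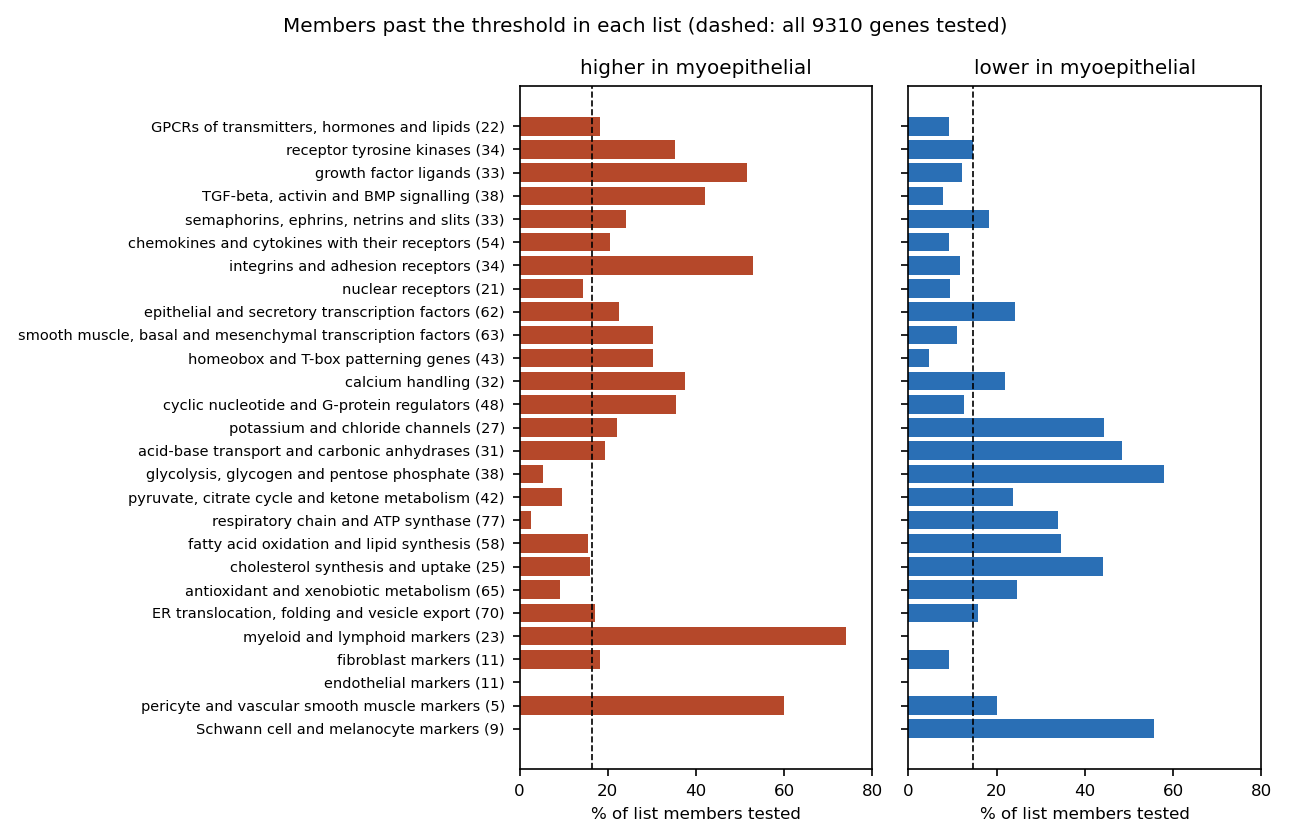
Percentage of the tested members of each list that were higher (left) or lower (right) in myoepithelial cells at an adjusted p under 0.05, with the number of members tested in parentheses. The dashed lines are the shares of all 9310 genes, 16.5% higher and 14.6% lower, and the longest bars belong to myeloid and lymphoid markers (73.9% higher) and to glycolysis genes (57.9% lower).

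G-protein-coupled receptors for transmitters, hormones and lipids passed the filter on low values less often than genes in general (9310 of 12393). Of 40 on the array 22 were tested, 4 were higher (leave-out counts 4, 3, 3 and 4) and 2 lower (leave-out counts 1, 1, 1 and 1) in myoepithelial cells (median 0.48). F2r, the thrombin receptor PAR1, had 5262 and 6941 in myoepithelial cells, against 102 and 158 in luminal cells (5.44, SE 0.48, adjusted p = 9.94e-05). Adgrg1, an adhesion receptor that binds collagen III, had 3188 and 3122 in myoepithelial cells, against 156 and 116 in luminal cells (4.44, SE 0.43). Ptger4, a prostaglandin E2 receptor that raises cyclic AMP, had 570 and 697 in myoepithelial cells, against 26.6 and 51.4 in luminal cells (3.70, SE 0.33). Each of these receptors was bright on both myoepithelial arrays and dim on both luminal arrays. Gpr37, an orphan receptor known from brain, was on the luminal side, with 72.3 and 13.1 in myoepithelial cells, against 711 and 607 in luminal cells (-3.86, SE 0.68, adjusted p = 0.00318, and -4.74 without array 1).

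Chrm3, the muscarinic receptor through which acetylcholine drives sweating, was dim in both layers and did not pass. Its signal was 53.8 and 69.2 in myoepithelial cells, against 73.6 and 47.9 in luminal cells (0.03, SE 0.51, adjusted p = 0.973), with overlapping values just above the 40th percentile of the arrays. Oxtr, the oxytocin receptor of mammary myoepithelium, did not pass the filter on low values and was not tested. A dim probe set does not show that the receptor is missing from the cells.

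Of the receptors for chemokines and for cytokines of the interleukin 6 family, Ackr3 and Osmr differed at least 16-fold and Lifr passed with a smaller difference. Cxcr4, another chemokine receptor, also passed on the myoepithelial side. It did not pass when myoepithelial array 2 or either luminal array was left out. Ackr3, an atypical receptor that takes up the chemokine CXCL12 without signalling through G proteins, had 12934 and 16494 in myoepithelial cells, against 35.0 and 145 in luminal cells (7.41, SE 0.78, adjusted p = 0.000261). Osmr, the oncostatin M receptor, had 4030 and 4006 in myoepithelial cells, against 27.5 and 61.4 in luminal cells (6.23, SE 0.62, adjusted p = 0.000197). Lifr, the receptor of leukaemia inhibitory factor, had 4074 and 3609 in myoepithelial cells, against 294 and 212 in luminal cells (3.88, SE 0.39). Ackr3, Osmr and Lifr were thus high on both myoepithelial arrays with little spread. Il6st, the signal-transducing partner that both cytokine receptors need, had 1300 and 1045 in myoepithelial cells, against 494 and 515 in luminal cells, and did not pass (1.19, SE 0.59, adjusted p = 0.164). Cxcl12 itself was dim, at 50 and 51.2 in myoepithelial cells and 48.2 and 80.4 in luminal cells, and did not pass (-0.25, adjusted p = 0.783).

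Over the whole list of chemokines, cytokines and their receptors, 11 of 54 tested members (20.4%) were higher (leave-out counts 11, 7, 9 and 8) and 5 (9.26%) lower (leave-out counts 7, 3, 3 and 3) in myoepithelial cells, with a median of 0.04, so the share higher was near that of all genes. Cxcl14, an epithelial chemokine, had 2046 and 3090 in myoepithelial cells, against 26.7 and 105 in luminal cells (5.23, SE 0.70). Tnfrsf11b, the decoy receptor osteoprotegerin, had 335 and 425 in myoepithelial cells, against 9.6 and 1.4 in luminal cells (4.52, SE 0.49). Il17re, a subunit of the interleukin 17C receptor, was lower, with 1153 and 606 in myoepithelial cells, against 3033 and 3686 in luminal cells (-1.98, SE 0.34, adjusted p = 0.00290, and -2.44 without array 1). Tnfrsf19 (-2.45), Il1r1 (-1.99), Il15ra (-1.98) and Il15 (-1.72) were the other members on the luminal side. Of these, Il1r1, Il15ra and Il15 had a leave-out p of 0.0506, 0.268 and 0.0604.

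Receptor tyrosine kinases divided between the layers, with 12 of 34 tested members higher (leave-out counts 9, 9, 9 and 8) and 5 lower (leave-out counts 5, 3, 3 and 3) in myoepithelial cells (median 0.43). Egfr, the receptor of epidermal growth factor, had 1365 and 1560 in myoepithelial cells, against 141 and 138 in luminal cells (3.28, SE 0.31, adjusted p = 0.000160). Its family members Erbb3 and Erbb2 were on the other side. Erbb3, which lacks strong kinase activity of its own and binds neuregulins, had 357 and 140 in myoepithelial cells, against 2068 and 1778 in luminal cells (-3.03, SE 0.44, adjusted p = 0.00134, and -3.67 without array 1). Erbb2, the ligandless partner of the family, had 183 and 190 in myoepithelial cells, against 473 and 465 in luminal cells (-1.28, SE 0.21, adjusted p = 0.00210, and -1.25 without array 1). Of the ligands of Egfr, Tgfa had 156 and 82.7 in myoepithelial cells, against 496 and 511 in luminal cells (-2.03, SE 0.30, adjusted p = 0.00147). Egf had 69.6 and 42.1 in myoepithelial cells, against 373 and 258 in luminal cells (-2.28, SE 0.57, adjusted p = 0.0155). Without array 1 the differences of Tgfa and Egf were -2.45 and -2.58. The leave-out p of Egf was 0.101, and Tgfa did not pass with the mean of its probe sets (adjusted p = 0.0700). Hbegf (-1.17) and Btc (-0.54) did not pass. The receptor was therefore brighter in the outer layer, and the 2 ligands that passed were brighter in the inner layer.

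Kit and its ligand were placed the other way round. Kitl, stem cell factor, had 10968 and 16801 in myoepithelial cells, against 2855 and 2696 in luminal cells (2.29, SE 0.38, adjusted p = 0.00246). Kit, its receptor, had 595 and 70.2 in myoepithelial cells, against 2742 and 2248 in luminal cells (-3.48, SE 0.84, adjusted p = 0.0129), and the difference was -4.92 without myoepithelial array 1. Its leave-out p was 0.0713. Kit also marks melanocytes and mast cells. The melanocyte gene Tyrp1 had 59.8 and 25.3 in myoepithelial cells, against 113 and 206 in luminal cells, and whether melanocytes gave part of the Kit signal was not tested.

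Fgfr2 and Fgfr3, receptors of fibroblast growth factors, were higher in myoepithelial cells (1.94, SE 0.41, and 2.57, SE 0.26), with a leave-out p of 0.0567 for Fgfr2. Fgf7, a ligand of the epithelial form of Fgfr2, had 682 and 553 in myoepithelial cells, against 44.1 and 5.5 in luminal cells (4.32, SE 0.60, adjusted p = 0.00110). Axl, a receptor that clears apoptotic cells and restrains inflammation, had 1698 and 1869 in myoepithelial cells, against 40.6 and 61.6 in luminal cells (4.85, SE 0.64). The ligands of Axl and its relatives, Gas6 (1.84, SE 0.24) and Pros1 (2.66, SE 0.50), were also higher there. For both systems receptor and ligand were thus brighter in the same layer. Ror2 (4.40), Ptk7 (2.41), Ntrk3 (2.34) and Ephb3 (1.94) were other receptors on the myoepithelial side, and Ntrk2 (-1.60) and Ephb4 (-0.90) were on the luminal side. Ptk7, Ntrk3 and Ephb4 did not pass in any of the 4 fits without a gland array, with a leave-out p of 0.199, 0.165 and 0.174. Csf1r (3.43), counted here, is also a marker of macrophages.

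Growth factor ligands were mostly myoepithelial, with 17 of 33 tested members higher (leave-out counts 16, 14, 16 and 15) and 4 lower (leave-out counts 4, 1, 1 and 1) and a median of 1.23. Pdgfc, a platelet-derived growth factor that acts on mesenchymal cells, had 3642 and 4157 in myoepithelial cells, against 16.4 and 15.6 in luminal cells (7.12, SE 0.43, adjusted p = 1.63e-05). Pdgfa, of the same family, had 3322 and 4102 in myoepithelial cells, against 483 and 525 in luminal cells (2.84, SE 0.25, adjusted p = 9.84e-05). Nrtn, neurturin, a survival factor of parasympathetic and other neurons, had 5032 and 7618 in myoepithelial cells, against 418 and 688 in luminal cells (3.5, SE 0.28, adjusted p = 6.41e-05). The receptors of these ligands were dim in both layers and did not pass. Pdgfra had 17.4 and 1.8 in myoepithelial cells, against 26.0 and 49.5 in luminal cells. Gfra2, the neurturin receptor, had 25.5 and 12.2 in myoepithelial cells, against 14.4 and 88.4 in luminal cells, and its partner Ret had 32.2 and 24.8, against 5.9 and 37.2. Pdgfc had a mean of 1618 in duct basal cells, so the ligand was not limited to the coil, whereas Nrtn had means of 325 in duct basal and 229 in duct suprabasal cells.

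The matricellular proteins Ccn2 (5.35, SE 0.73) and Ccn1 (4.27), targets of mechanical signalling through YAP, the neurotrophin Bdnf (2.95) and the lymphatic factors Vegfc (1.81) and Vegfd (3.17) were among the other ligands higher in myoepithelial cells. Csf1, the macrophage growth factor, had 549 and 540 in myoepithelial cells, against 93.2 and 124 in luminal cells (2.22, SE 0.66, adjusted p = 0.0301), and did not pass in any of the 4 fits without a gland array, with adjusted p between 0.0900 and 0.137. The angiogenic factor Vegfa was on the luminal side, with 328 and 199 in myoepithelial cells, against 1175 and 952 in luminal cells (-2.00, SE 0.52, adjusted p = 0.0181, and -2.34 without array 1) with a leave-out p of 0.122, as was Vegfb (-1.15, with a leave-out p of 0.185).

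**Figure D3:**
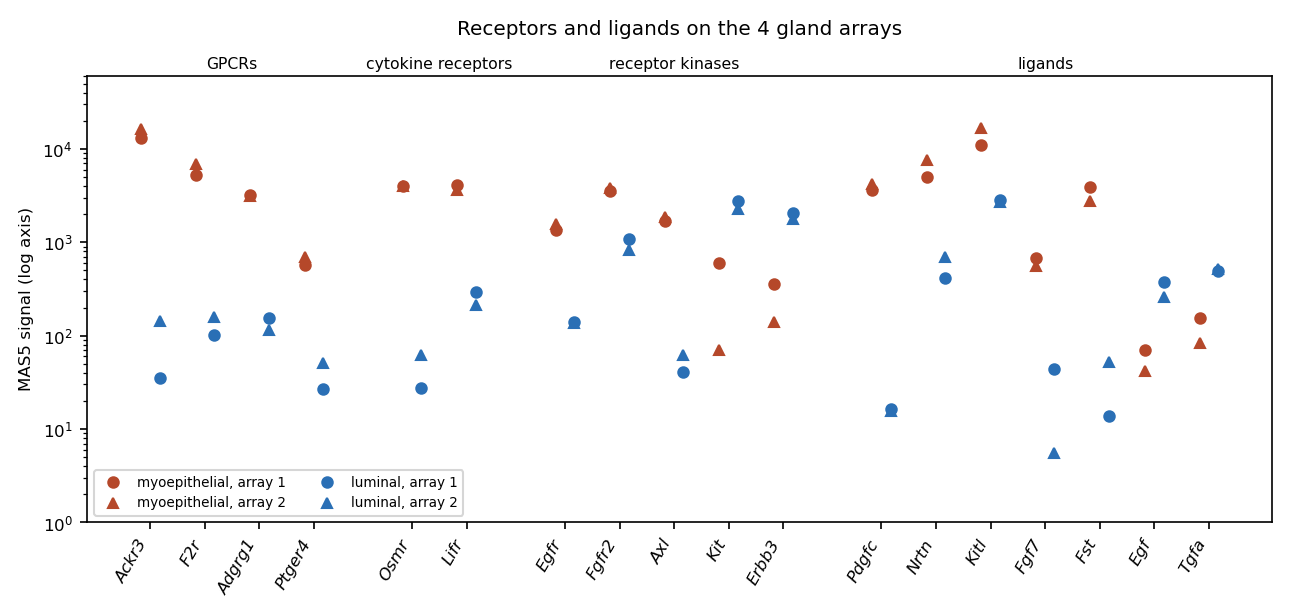
MAS5 signal (log axis) of receptors and ligands on the 2 myoepithelial arrays (red, left of each pair) and the 2 luminal arrays (blue, right), with circles for array 1 and triangles for array 2. Signals of different genes are not comparable. Egfr lay higher and Kit and Erbb3 lower in myoepithelial cells, and for Kit and Erbb3 array 1 lay above array 2.

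In the TGF-beta, activin and BMP family 16 of 38 tested members were higher (leave-out counts 11, 10, 12 and 10) and 3 lower (leave-out counts 1, 1, 1 and 1) in myoepithelial cells (median 0.73). Fst, follistatin, which traps activin, had 3858 and 2753 in myoepithelial cells, against 13.7 and 52.1 in luminal cells (6.33, SE 0.47, adjusted p = 4.76e-05). Acvr2a, an activin receptor, was higher in the same cells, with 1024 and 1566 in myoepithelial cells, against 304 and 233 in luminal cells (2.20, SE 0.32, adjusted p = 0.00141). Tgfb2 was lower, with 399 and 244 in myoepithelial cells, against 1725 and 1182 in luminal cells (-2.15, SE 0.36, adjusted p = 0.00254, and -2.49 without array 1). Tgfb3 had the other sign (1.93, with a leave-out p of 0.0763), and Tgfb1 (-1.45), dim in both layers, did not pass in any of the 4 fits without a gland array (leave-out p of 0.151). Ltbp2 (3.0) and Tgfbi (2.80, with a leave-out p of 0.0938), matrix partners and targets, the type I receptor Tgfbr1 (1.49) and the signal transducers Smad1 (2.18) and Smad4 (1.14) were higher in myoepithelial cells, while the type II receptor Tgfbr2 was lower by a small amount (-0.75). Tgfbr2 did not pass in any of the 4 fits without a gland array (leave-out p of 0.186), and neither Tgfbr2 (adjusted p = 0.101) nor Tgfbr1 (adjusted p = 0.0731) passed with the mean of its probe sets.

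Guidance genes were mixed, with 8 of 33 tested members higher (leave-out counts 5, 5, 5 and 5) and 6 lower (leave-out counts 6, 2, 2 and 2) in myoepithelial cells (median 0.14). Sema5a, a transmembrane semaphorin, had 1716 and 2114 in myoepithelial cells, against 37.0 and 50.1 in luminal cells (5.12, SE 0.36, adjusted p = 3.28e-05). Ntn1, a netrin, and its receptor Unc5b lay in different layers, while the netrin receptors Dcc, Neo1 and Unc5c were tested and did not pass. Ntn1 had 130 and 30.1 in myoepithelial cells, against 703 and 685 in luminal cells (-3.19, SE 0.57, adjusted p = 0.00347, and -4.07 without array 1), and Unc5b had 254 and 259 in myoepithelial cells, against 29.2 and 8.5 in luminal cells (3.21, SE 0.42). For slit proteins, Slit2 had 207 and 113 in myoepithelial cells, against 441 and 436 in luminal cells (-1.44, SE 0.32, adjusted p = 0.00913, and -1.85 without array 1), and Robo1 had 161 and 200 in myoepithelial cells, against 3.1 and 14.2 in luminal cells (3.27, SE 0.36). Slit2 had a leave-out p of 0.0784 and did not pass with the mean of its probe sets (adjusted p = 0.1). Slit3, however, was on the myoepithelial side (3.11), but did not pass in any of the 4 fits without a gland array (leave-out p of 0.13).

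Of 34 integrins and adhesion receptors tested 18 were higher (leave-out counts 14, 9, 10 and 12) and 4 lower (leave-out counts 4, 2, 3 and 2) in myoepithelial cells (median 1.06). Icam1, the ligand of leukocyte integrins, had 1774 and 1666 in myoepithelial cells, against 19.9 and 37.9 in luminal cells (5.44, SE 0.71). Cdh3, P-cadherin of basal epithelia, had 1056 and 750 in myoepithelial cells, against 9.5 and 11.6 in luminal cells (5.32, SE 0.59). Mcam, an adhesion molecule shared by smooth muscle, pericytes and endothelium, had 3701 and 1776 in myoepithelial cells, against 98.9 and 115 in luminal cells (4.44, SE 0.43). Cadherins 13 (Cdh13, 3.99) and 2 (Cdh2, 3.61) were also higher. Among the integrin subunits Itgb1 (1.78), Itga6 (1.59) and Itgav (1.31) were higher, although Itgb1 (adjusted p = 0.0553) and Itgav (adjusted p = 0.133) did not pass with the mean of their probe sets. Itgb4, the partner of Itga6 in hemidesmosomes, was lower, with 304 and 221 in myoepithelial cells, against 677 and 633 in luminal cells (-1.30, SE 0.24, adjusted p = 0.00369, and -1.52 without array 1). Epcam, of simple epithelia, had 2571 and 528 in myoepithelial cells, against 10452 and 12605 in luminal cells (-3.28, SE 0.62), and its difference was -4.41 without array 1.

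Transcription factors of basal epithelium and of smooth muscle were found together in myoepithelial cells. In the list of smooth muscle, basal and mesenchymal factors 19 of 63 tested members were higher (leave-out counts 16, 14, 16 and 14) and 7 lower (leave-out counts 5, 1, 1 and 4) (median 0.48). Snai2, a zinc finger repressor of basal and mesenchymal cells, had 1954 and 1957 in myoepithelial cells, against 37.0 and 34.4 in luminal cells (5.37, SE 0.37, adjusted p = 3.01e-05). Mef2c, a muscle factor, had 1248 and 1768 in myoepithelial cells, against 34.7 and 54.9 in luminal cells (4.74, SE 0.58). Id4, an inhibitor of helix-loop-helix factors, had 2298 and 2782 in myoepithelial cells, against 72.8 and 104 in luminal cells (4.68, SE 0.63). Trp63, the p63 factor of basal epithelia, had 3807 and 4738 in myoepithelial cells, against 38.1 and 55.0 in luminal cells (6.20, SE 0.22). Srf, serum response factor, had 1578 and 1760 in myoepithelial cells, against 274 and 221 in luminal cells (2.70, SE 0.27, adjusted p = 0.000202). Its actin-sensing cofactor Mrtfa had 470 and 667 in myoepithelial cells, against 118 and 125 in luminal cells (2.10, SE 0.32, adjusted p = 0.00161). Mrtfb, a second cofactor, was dim and lower (-1.44, with a leave-out p of 0.168), and Myocd, the cofactor of heart and vascular muscle, did not pass the filter on low values. The hippo effectors Yap1 (1.57) and Wwtr1 (1.36, with a leave-out p of 0.0617) were higher in myoepithelial cells.

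Members of the same list that were lower in myoepithelial cells were Sox9 (-2.16), a progenitor factor of many glands, Csrp2 (-2.58), the Notch targets Hes1 (-1.84) and Hey2 (-2.06), Id2 (-1.61), Jund (-1.27) and Mrtfb. Hes1, Hey2, Id2 and Jund had a leave-out p of 0.152, 0.0805, 0.116 and 0.228. Sox9 had 1350 and 744 in myoepithelial cells, against 4759 and 4283 in luminal cells (SE 0.52, adjusted p = 0.0123, and -2.58 without array 1) with a leave-out p of 0.0957, so its transcript was present on both sides and brighter in the luminal layer.

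Of 62 epithelial and secretory factors tested 14 were higher (leave-out counts 11, 9, 11 and 10) and 15 lower (leave-out counts 15, 5, 6 and 9) in myoepithelial cells (median -0.10). With the luminal excess subtracted the counts were 13 higher and 19 lower, so neither direction led in all of these fits. Foxa1, a forkhead pioneer factor of glandular epithelia, had 156 and 2.8 in myoepithelial cells, against 794 and 830 in luminal cells (-4.05, SE 0.96, adjusted p = 0.0120). Tfcp2l1, a grainyhead-related factor of kidney collecting duct and salivary duct, had 1460 and 144 in myoepithelial cells, against 7355 and 7000 in luminal cells (-3.91, SE 1.01, adjusted p = 0.0170). Ehf, an epithelial ETS factor, had 1525 and 177 in myoepithelial cells, against 8270 and 7074 in luminal cells (-3.83, SE 0.96, adjusted p = 0.0156). In all 3 cases array 1 lay far above array 2 and both lay below the luminal arrays. Without array 1 the differences of Foxa1, Tfcp2l1 and Ehf were -5.80, -5.52 and -5.34. Without array 2 the differences of Tfcp2l1 and Ehf were -2.29 and -2.32. Tfcp2l1 and Ehf did not pass when myoepithelial array 2 or either luminal array was left out. Foxa1 did not pass when either luminal array was left out. With the mean of its probe sets Tfcp2l1 did not pass (adjusted p = 0.0553). Elf5, an ETS factor of milk-secreting cells, followed (-3.79), as did Klf5 (-2.86), Grhl1 (-2.24), Foxc1 (-2.08) and Stat5a (-1.67). Elf5, Grhl1 and Foxc1 had a leave-out p of 0.0663, 0.0562 and 0.0661.

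Several members of that list had the opposite direction. Cebpa, a differentiation factor of fat, liver and epidermis, had 1418 and 1831 in myoepithelial cells, against 14.2 and 55.4 in luminal cells (5.27, SE 0.46, adjusted p = 9.94e-05). Ets1 (3.11), Klf4 (2.86), Ets2 (2.64), Mitf (2.60) and Creb3l2 (2.57) were also higher in myoepithelial cells. Factors of the ETS family thus lay on both sides, with Ets1 and Ets2 higher in myoepithelial cells and Ehf, Elf3 (-1.39, with a leave-out p of 0.0823) and Elf5 lower.

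Among nuclear receptors 3 of 21 tested members were higher (leave-out counts 2, 2, 2 and 2) and 2 lower (leave-out counts 1, 1, 1 and 1) (median -0.11). Nr3c1, the glucocorticoid receptor, had 1495 and 2194 in myoepithelial cells, against 289 and 274 in luminal cells (2.64, SE 0.33, adjusted p = 0.000632). Esrra, an orphan receptor that drives mitochondrial genes, had 356 and 314 in myoepithelial cells, against 786 and 942 in luminal cells (-1.33, SE 0.22, adjusted p = 0.00257, and -1.42 without array 1). Of 43 homeobox and T-box patterning genes 13 were higher (leave-out counts 10, 7, 10 and 9) and 2 lower (leave-out counts 3, 1, 1 and 1) (median 0.22). Irx4, an Iroquois factor known from the heart ventricle, had 1378 and 1614 in myoepithelial cells, against 11.2 and 5.9 in luminal cells (6.21, SE 0.39, adjusted p = 2.18e-05). Tbx1 had 956 and 996 in myoepithelial cells, against 65.6 and 68.1 in luminal cells (3.65, SE 0.20, adjusted p = 1.02e-05). Barx2 was the bright member on the luminal side, with 89.6 and 84.7 in myoepithelial cells, against 542 and 712 in luminal cells (-2.68, SE 0.53, adjusted p = 0.00552), and its difference was nearly the same without array 1 (-2.71). The patterning genes Irx1 (1.14, with a leave-out p of 0.216) and Irx2 (1.23, with a leave-out p of 0.0802) shared the direction of Irx4, and Gli2, a hedgehog effector, was higher too, with 456 and 294 in myoepithelial cells, against 2.1 and 2.3 in luminal cells (4.73, SE 0.53).

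**Figure D4:**
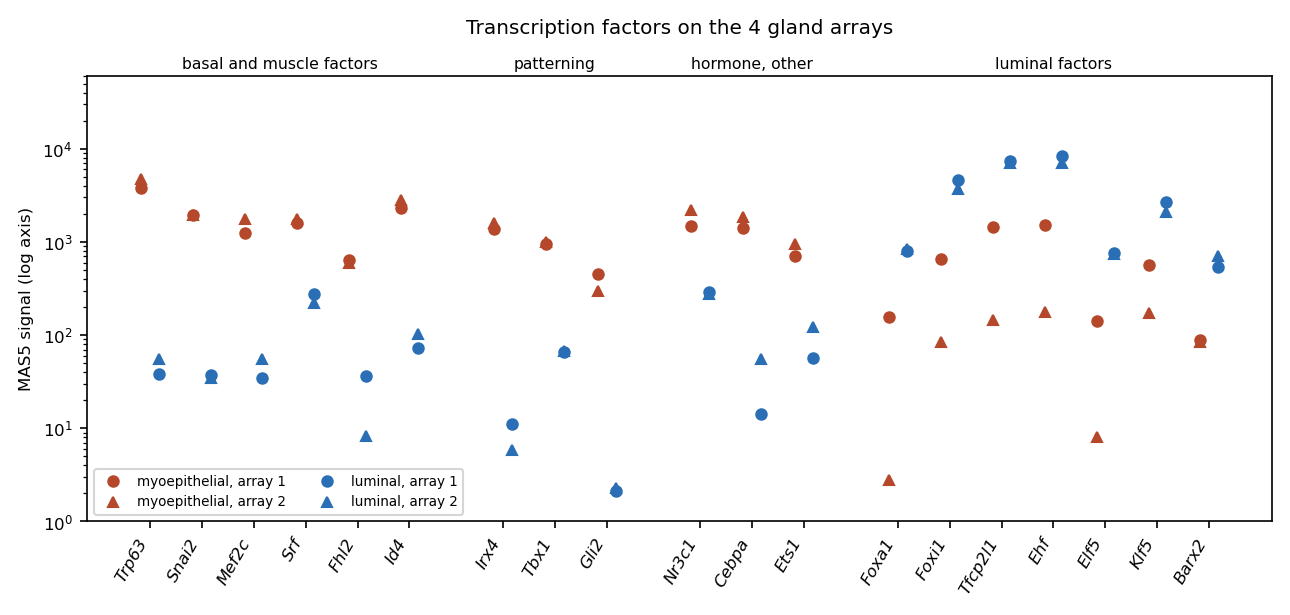
MAS5 signal (log axis) of transcription factors on the 2 myoepithelial arrays (red, left of each pair) and the 2 luminal arrays (blue, right), with circles for array 1 and triangles for array 2. For Foxa1, Foxi1, Tfcp2l1, Ehf and Elf5 array 1 of the myoepithelial cells lay between array 2 and the luminal arrays, while for Barx2 the myoepithelial arrays were close to each other.

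Because Srf was higher in myoepithelial cells and Foxa1 lower, RefSeq promoters of the genes tested were searched on both strands for motifs. The window ran from 250 bases before to 50 bases after the transcript start on GRCm38.p6. The CArG box of serum response factor was taken strictly as CCWWWWWWGG, with W for A or T, and the forkhead motif as the letters GTAAACA. Boxes that differ from these letters were not counted. A gene was counted if any of its promoters held the motif. A CArG box was found in 2.44% of 1228 genes higher in myoepithelial cells and in 2.08% of 1106 genes lower. It was found in 1.69% of all 7517 tested genes with a promoter in the table, against 1.81% of all 27025 genes with a promoter there. The forkhead letters were found in 2.85% of the higher, 2.44% of the lower and 3.09% of all tested genes, against 4.05% of all 27025 genes. The shares were close in both directions, and a match is a description of letters and not of a bound site. The sequences shown are those of the genes that passed the naming rule, held the motif and had the largest differences, chosen after their values were seen, with the motif in capitals, 5′ to 3′ on the strand of the gene. The CArG box of Pdgfc begins 17 bases before the start, that of Myl9, the regulatory light chain of smooth muscle myosin, 161 bases before it, and that of Cnn2, a calponin of nonmuscle cells, 56 bases before it. The forkhead letters of Atp6v1b1 and of Foxa1 itself begin 98 and 141 bases before the start. Not every chromosome was considered in choosing the sequences. Of the contractile genes, Myh11, Tagln and Actg2 had no promoter among those examined. The promoters of Acta2, Cnn1 and Mylk held no exact match to the CArG letters in this window. Those of the luminal genes Aqp5, Krt8, Krt18, Foxi1, Atp6v0a4 and Atp1b1 held no forkhead letters. The windows are chr3:81036166-81036465 (plus strand) for Pdgfc, chr2:156775214-156775513 (plus) for Myl9, chr10:79988350-79988649 (plus) for Cnn2, chr6:83742767-83743066 (plus) for Atp6v1b1 and chr12:57546062-57546361 (minus) for Foxa1.
Pdgfc: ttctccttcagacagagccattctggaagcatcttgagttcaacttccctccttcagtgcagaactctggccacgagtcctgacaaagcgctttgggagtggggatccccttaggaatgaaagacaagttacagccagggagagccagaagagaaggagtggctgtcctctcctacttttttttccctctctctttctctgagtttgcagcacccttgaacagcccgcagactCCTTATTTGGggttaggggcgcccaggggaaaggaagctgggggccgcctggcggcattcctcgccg
Myl9: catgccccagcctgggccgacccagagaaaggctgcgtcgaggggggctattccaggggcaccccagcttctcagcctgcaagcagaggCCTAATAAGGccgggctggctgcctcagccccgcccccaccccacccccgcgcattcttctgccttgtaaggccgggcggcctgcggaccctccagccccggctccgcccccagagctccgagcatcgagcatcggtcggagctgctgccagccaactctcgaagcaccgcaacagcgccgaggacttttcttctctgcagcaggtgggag
Cnn2: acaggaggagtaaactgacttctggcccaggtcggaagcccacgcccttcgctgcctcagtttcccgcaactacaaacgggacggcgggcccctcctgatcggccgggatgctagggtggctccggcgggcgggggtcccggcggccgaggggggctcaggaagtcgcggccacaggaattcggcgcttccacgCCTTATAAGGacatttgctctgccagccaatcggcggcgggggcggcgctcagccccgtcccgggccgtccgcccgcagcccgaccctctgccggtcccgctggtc
Atp6v1b1: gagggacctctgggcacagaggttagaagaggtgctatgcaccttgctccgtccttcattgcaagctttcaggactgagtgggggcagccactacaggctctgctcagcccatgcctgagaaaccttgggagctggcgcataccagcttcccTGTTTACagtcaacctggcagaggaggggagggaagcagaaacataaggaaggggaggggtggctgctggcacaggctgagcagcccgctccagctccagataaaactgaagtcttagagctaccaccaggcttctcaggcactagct
Foxa1: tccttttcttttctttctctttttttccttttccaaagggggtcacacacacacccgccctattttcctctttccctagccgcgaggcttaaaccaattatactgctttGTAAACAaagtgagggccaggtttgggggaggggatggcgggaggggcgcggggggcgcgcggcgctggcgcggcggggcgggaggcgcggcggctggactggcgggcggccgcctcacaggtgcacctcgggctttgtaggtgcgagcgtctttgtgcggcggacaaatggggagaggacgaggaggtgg

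The genes whose promoters are printed differed strongly between the layers. Myl9 had 23818 and 36088 in myoepithelial cells, against 168 and 370 in luminal cells (6.81, SE 0.40, adjusted p = 1.48e-05), and Cnn2 had 4123 and 5153 in myoepithelial cells, against 35.1 and 93.8 in luminal cells (6.03, SE 0.48). Atp6v1b1 had 1595 and 227 in myoepithelial cells, against 10260 and 12450 in luminal cells (-4.19, SE 0.77, adjusted p = 0.00392, and -5.56 without array 1).

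Calcium handling genes passed in both directions. Of 32 tested members 12 were higher (leave-out counts 10, 11, 10 and 12) and 7 lower (leave-out counts 6, 2, 4 and 4) in myoepithelial cells (median 0.45). Casq2, the calcium store protein calsequestrin of cardiac muscle, had 4479 and 4094 in myoepithelial cells, against 17.2 and 38 in luminal cells (6.81, SE 0.31, adjusted p = 5.76e-06). Sln, sarcolipin, a small inhibitor of the calcium pump of muscle, had 2852 and 3121 in myoepithelial cells, against 20.3 and 15.6 in luminal cells (6.65, SE 0.52, adjusted p = 5.93e-05). Pcp4, a calmodulin regulator known from Purkinje cells, had 13141 and 18757 in myoepithelial cells, against 116 and 121 in luminal cells (6.91, SE 0.52, adjusted p = 5.28e-05). All 3 were tight between arrays and dim in the duct, where mean signals did not exceed 122 in duct basal and 78.2 in duct suprabasal cells.

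The pumps that load the stores differed by gene. Atp2a2 (SERCA2) had 16805 and 19155 in myoepithelial cells, against 7567 and 6856 in luminal cells (1.32, SE 0.26, adjusted p = 0.00566). Atp2a3 (SERCA3) had 5502 and 722 in myoepithelial cells, against 17451 and 24839 in luminal cells (-3.37, SE 0.82, adjusted p = 0.0131). Itpr2, the inositol trisphosphate receptor of exocrine cells, had 787 and 116 in myoepithelial cells, against 3859 and 3954 in luminal cells (-3.62, SE 0.82, adjusted p = 0.00939). The luminal pair lost its call without array 2 (adjusted p = 0.0621 for Atp2a3 and 0.0580 for Itpr2) or luminal array 2 (0.0788 and 0.0530) and was -4.83 and -4.94 without array 1. Itpr3 (-1.96) and the Golgi pumps Atp2c2 (-3.41) and Atp2c1 (-1.90) were likewise lower in myoepithelial cells, whereas the channels Trpv4 (3.46), Trpc4 (3.19), Trpc1 (1.93) and Cacna1c (1.95) were higher at low signal. Itpr3, Atp2c2 and Cacna1c had a leave-out p of 0.0619, 0.0503 and 0.223, and Trpc1 did not pass with the mean of its probe sets (adjusted p = 0.0537).

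Cyclic nucleotide and G-protein regulators were more often higher in myoepithelial cells, 17 of 48 tested members (leave-out counts 10, 6, 10 and 9) against 6 lower (leave-out counts 6, 4, 4 and 5), with a median of 0.89. Fewer of all genes also passed in each of the 4 fits without a gland array. The higher members of this list nevertheless fell by a larger share than all higher genes in each of these fits. Rgs2, which turns off Gq signals and lowers the tone of vascular muscle, had 6382 and 9264 in myoepithelial cells, against 160 and 259 in luminal cells (5.16, SE 0.31, adjusted p = 1.56e-05). Adenylyl cyclases were divided. Adcy3 (3.08) and Adcy9 (1.36) were higher in myoepithelial cells, and Adcy8 (-2.51) and Adcy6 (-2.20) were lower, with a leave-out p of 0.113 for both Adcy9 and Adcy8. Gna14, a Gq family subunit, had 60.5 and 26.6 in myoepithelial cells, against 414 and 319 in luminal cells (-2.83, SE 0.40, adjusted p = 0.00115, and -3.28 without array 1). Pde9a, a phosphodiesterase of cyclic GMP, had 220 and 29.4 in myoepithelial cells, against 982 and 998 in luminal cells (-3.35, SE 0.69, and -4.60 without array 1), and the cyclic GMP genes Npr2 (3.07), a receptor of natriuretic peptide, and Gucy1b1 (2.33), a guanylyl cyclase subunit, were on the other side at low signal. Gucy1b1 had a leave-out p of 0.109 and did not pass with the mean of its probe sets (adjusted p = 0.0556). Of the 4 probe sets of Adcy3, 1 differed in sign without passing.

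Potassium and chloride channels were mostly lower in myoepithelial cells, with 12 of 27 tested members lower (leave-out counts 11, 5, 6 and 4) and 6 higher (leave-out counts 4, 4, 5 and 5) and a median of -0.75. Kcnn4, the calcium-activated potassium channel of secretory cells, had 2534 and 311 in myoepithelial cells, against 11892 and 14278 in luminal cells (-3.85, SE 0.87, adjusted p = 0.00953). Kcnq1 and its partner Kcne3, a basolateral potassium channel of secretory epithelia, were both lower, with Kcnq1 at 390 and 122 in myoepithelial cells, against 1434 and 1326 in luminal cells (-2.58, SE 0.70), and Kcne3 at -3.66 (SE 0.92). Ano1, the calcium-activated chloride channel, had 301 and 83.6 in myoepithelial cells, against 1194 and 1074 in luminal cells (-2.73, SE 0.64, adjusted p = 0.0113). In each of these array 1 was the brighter myoepithelial array. Without it the differences of Kcnn4, Kcnq1, Kcne3 and Ano1 were -5.33, -3.37, -5.12 and -3.58, and their leave-out p was 0.0581, 0.153, 0.105 and 0.0879. Clic4, an intracellular chloride channel protein, was the bright member on the other side, with 5291 and 7495 in myoepithelial cells, against 217 and 311 in luminal cells (4.53, SE 0.51). Slc12a2, the sodium-potassium-chloride cotransporter that loads secretory cells with chloride, had 23444 and 38537 in myoepithelial cells, against 23971 and 37866 in luminal cells, and did not pass (SE 0.31, adjusted p = 0.994). Its arrays overlapped fully, although the partners of secretion named above were brighter in the luminal layer.

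Acid-base transport genes were more often lower in myoepithelial cells, with 15 of 31 tested members lower (leave-out counts 15, 8, 8 and 7) and 6 higher (leave-out counts 5, 5, 5 and 6) and a median of -1.18. The luminal genes of this list had a median of 23.9% of the luminal level on myoepithelial array 1 and 4.68% on array 2, and all 15 were brighter on array 1. Atp6v0a4, a proton pump subunit of intercalated cells, had 483 and 53.2 in myoepithelial cells, against 3165 and 3131 in luminal cells (-4.14, SE 0.74, adjusted p = 0.00331, and -5.60 without array 1). Slc26a4, the anion exchanger pendrin, had 237 and 49.7 in myoepithelial cells, against 1469 and 1396 in luminal cells (-3.54, SE 0.84, adjusted p = 0.0116, and -4.55 without array 1, with a leave-out p of 0.0936). Car12, a carbonic anhydrase of the cell surface, had 5802 and 1258 in myoepithelial cells, against 16018 and 21517 in luminal cells (-2.77, SE 0.63, and -3.87 without array 1, with a leave-out p of 0.0641), and the carbonic anhydrases Car6 (-3.67), Car2 (-3.50, with a leave-out p of 0.205) and Car8 (-2.98, with a leave-out p of 0.135) shared its direction. Car8 did not pass with the mean of its probe sets (adjusted p = 0.0702). Slc16a1, the monocarboxylate transporter MCT1 that carries lactate, was higher, with 854 and 858 in myoepithelial cells, against 24.4 and 64.5 in luminal cells (4.04, SE 0.38, adjusted p = 0.000158). A related carrier, Slc16a7 (3.57), and the potassium-chloride cotransporter Slc12a4 (2.89) were also on the myoepithelial side.

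Glycolysis was the metabolic pathway with the highest share of members lower in myoepithelial cells, 22 of 38 tested (leave-out counts 19, 11, 16 and 12) against 2 higher (leave-out counts 1, 1, 2 and 1), with a median of -1.13. Hk1, the hexokinase that starts glycolysis, had 4256 and 824 in myoepithelial cells, against 15520 and 16649 in luminal cells (-3.09, SE 0.66, adjusted p = 0.00742). Pfkl, a phosphofructokinase, had 740 and 455 in myoepithelial cells, against 4648 and 4120 in luminal cells (-2.89, SE 0.29, adjusted p = 0.000202). Pkm, pyruvate kinase of muscle and many other tissues, had 3756 and 1150 in myoepithelial cells, against 12160 and 15251 in luminal cells (-2.70, SE 0.54, adjusted p = 0.00561). Without array 1 the differences of Hk1, Pfkl and Pkm were -4.27, -3.23 and -3.55. Transcripts of several steps were thus brighter in the luminal layer, from the glucose transporter Slc2a1 (-1.85) through Tpi1 (-2.25), Pgk1 (-1.52) and Pgam1 (-2.11) to Ldha (-1.59). Fbp1, an enzyme of gluconeogenesis that opposes phosphofructokinase, shared that side, with 4442 and 914 in myoepithelial cells, against 19826 and 33146 in luminal cells (-3.66, SE 0.71, adjusted p = 0.00490, and -4.79 without array 1). The pentose phosphate genes Taldo1 (-2.05), Tkt (-1.42) and Pgd (-1.15) were lower as well. Slc2a1, Pgk1, Pgam1 and Ldha had a leave-out p of 0.0714, 0.0832, 0.106 and 0.126, and Tkt and Pgd had 0.0985 and 0.084.

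Members that stood apart were few. Pygb, a glycogen phosphorylase, had 4162 and 3149 in myoepithelial cells, against 1388 and 1059 in luminal cells (1.57, SE 0.25, adjusted p = 0.00200), and Gbe1, the branching enzyme of glycogen, was higher by 1.0 with a leave-out p of 0.177. Slc2a4, the glucose transporter of muscle and fat that insulin controls, had 2812 and 3214 in myoepithelial cells, against 3744 and 3455 in luminal cells, and did not pass (-0.26, adjusted p = 0.534). Hk2, the hexokinase of muscle, did not pass either (-0.84, adjusted p = 0.0951). The luminal genes of the glycolysis list had medians of 38.2% and 19.5% of the luminal level on myoepithelial arrays 1 and 2.

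Genes of pyruvate, citrate cycle and ketone metabolism were lower for 10 (leave-out counts 10, 5, 7 and 7) and higher for 4 (leave-out counts 3, 3, 4 and 3) of 42 tested members, with a median of -0.22. The pyruvate dehydrogenase kinases, which hold back the entry of pyruvate into the cycle, differed in direction. Pdk4 had 509 and 369 in myoepithelial cells, against 76.0 and 55.3 in luminal cells (2.53, SE 0.36, adjusted p = 0.00121). Pdk1 had 612 and 311 in myoepithelial cells, against 2584 and 2366 in luminal cells (-2.47, SE 0.47, adjusted p = 0.00436, and -2.94 without array 1), and Pdk3 had the same direction (-2.06). Malic enzyme Me1 (-3.03), glutamine synthetase Glul (-2.14, with a leave-out p of 0.273) and pyruvate carboxylase Pcx (-1.86) were lower, and Idh1 (1.48) and Gpt2 (1.56) were higher in myoepithelial cells.

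Respiratory chain and ATP synthase genes showed small differences of 1 direction, with 26 of 77 tested members lower (leave-out counts 10, 13, 21 and 8) and 2 higher (leave-out counts 2, 2, 2 and 2) and a median of -0.48. Without myoepithelial array 1 the share of members lower was close to the share of all genes lower in that fit. The 2 higher members belong to the transfer of energy and not to the chain itself. Ckb, cytosolic creatine kinase, had 12402 and 12268 in myoepithelial cells, against 108 and 180 in luminal cells (6.35, SE 0.55, adjusted p = 9.63e-05). Slc25a4, the adenine nucleotide translocator of muscle and heart, had 11415 and 16009 in myoepithelial cells, against 4279 and 4273 in luminal cells (1.66, SE 0.22, adjusted p = 0.000800). The mitochondrial creatine kinase Ckmt1 was on the luminal side, with 2048 and 1361 in myoepithelial cells, against 5910 and 5694 in luminal cells (-1.79, SE 0.30, and -2.08 without array 1). Of the chain, Cox7a1, a subunit of cytochrome oxidase known from heart and muscle, had the largest difference and was luminal, with 102 and 47.1 in myoepithelial cells, against 459 and 498 in luminal cells (-2.58, SE 0.44, adjusted p = 0.00258, and -3.05 without array 1). Most other members that passed, such as Cox8a (-1.08) and Ndufa3 (-0.96), differed about 2-fold or less.

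**Figure D5:**
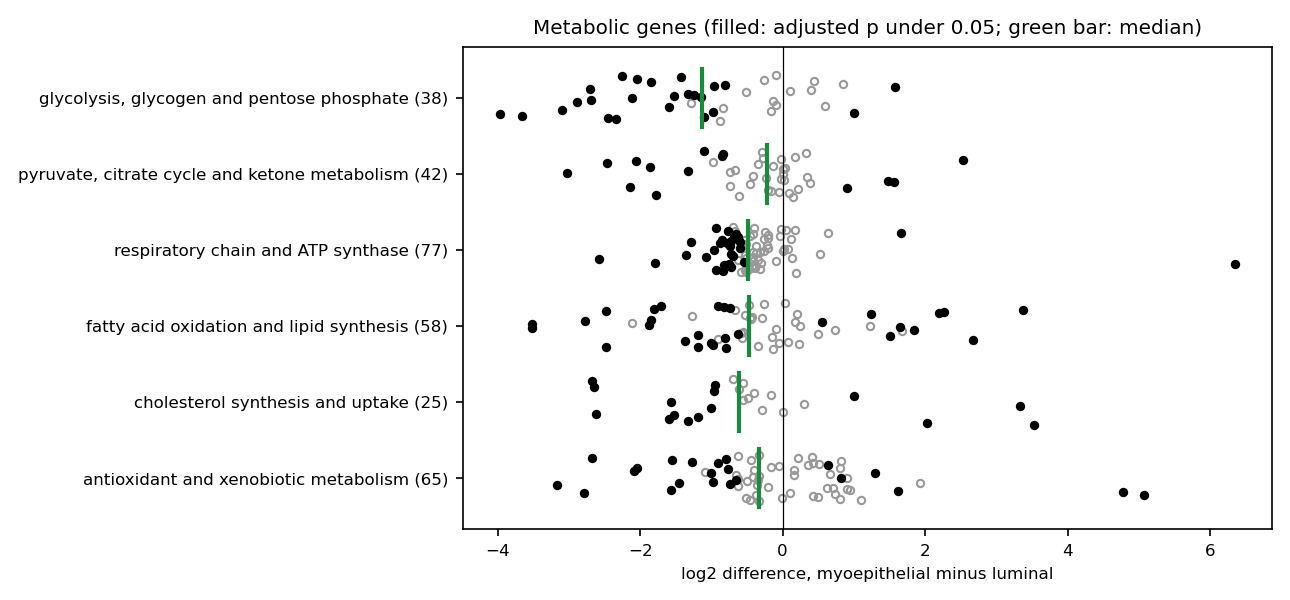
Log2 difference, myoepithelial minus luminal, of every tested gene in 6 metabolic lists, with the number tested in parentheses. Filled points passed at an adjusted p under 0.05, open points did not, and green bars mark the medians, from -1.13 for glycolysis to -0.22 for pyruvate and citrate cycle genes. Ckb, at 6.35, is the point farthest to the right.

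Lipid genes were lower for 20 (leave-out counts 17, 13, 15 and 11) and higher for 9 (leave-out counts 8, 5, 4 and 5) of 58 tested members, with a median of -0.46. Fads2, a fatty acid desaturase, had 245 and 52.8 in myoepithelial cells, against 1775 and 1208 in luminal cells (-3.52, SE 0.60, adjusted p = 0.00274, and -4.51 without array 1). Plin2, a coat protein of lipid droplets, had 8131 and 2043 in myoepithelial cells, against 17990 and 28741 in luminal cells (-2.48, SE 0.57, adjusted p = 0.0104, and -3.47 without array 1, with a leave-out p of 0.0764). Plin4, another droplet coat, had the opposite direction, with 450 and 356 in myoepithelial cells, against 28.7 and 27.4 in luminal cells (3.37, SE 0.44, adjusted p = 0.000830). Mgll (2.26), a monoglyceride lipase, and Lpl (2.20) and Cd36 (2.67), which take up fatty acids, were higher with Plin4. Among the synthesis genes, Elovl7 (-3.51), Fads1 (-1.87) and Acly (-1.0) were lower with Fads2. Fasn had a small difference of the other sign (0.55) that did not pass in any of the 4 fits without a gland array (leave-out p of 0.149). Mgll had a leave-out p of 0.126. With the mean of their probe sets Mgll (adjusted p = 0.145), Cd36 (adjusted p = 0.0524) and Acly (adjusted p = 0.0979) did not pass, and of the 4 probe sets of Acly 1 differed in sign without passing. Dgat2 and Lpin2, also genes of lipid synthesis, were higher in myoepithelial cells, so synthesis genes lay on both sides. Neither passed with the mean of its probe sets (adjusted p = 0.0754 and 0.199). Dgat2 did not pass when myoepithelial array 2 or luminal array 1 was left out.

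Cholesterol genes divided by role. Of 25 tested members 11 were lower (leave-out counts 8, 6, 4 and 5) and 4 higher (leave-out counts 3, 2, 2 and 2), with a median of -0.61. All 11 lower members were enzymes of synthesis except the receptor Scarb1 (-2.64, with a leave-out p of 0.159), led by Tm7sf2 (-2.67) and Fdps, farnesyl diphosphate synthase, with 386 and 195 in myoepithelial cells, against 1671 and 1847 in luminal cells (-2.62, SE 0.33, adjusted p = 0.000660, and -3.09 without array 1). Fdps did not pass with the mean of its probe sets (adjusted p = 0.0817). The 4 higher members move cholesterol or lipoproteins. Abca1, which exports cholesterol, had 1497 and 1619 in myoepithelial cells, against 115 and 132 in luminal cells (3.53, SE 0.27, adjusted p = 5.28e-05), and Lrp1 (3.33), Abcg1 (2.02) and Npc1 (1.0) followed, with a leave-out p of 0.0786 for Abcg1 and 0.146 for Npc1.

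Antioxidant and xenobiotic genes were lower for 16 (leave-out counts 11, 10, 9 and 9) and higher for 6 (leave-out counts 6, 4, 5 and 3) of 65 tested members, with a median of -0.33. Cbr2, a carbonyl reductase, had 3906 and 4685 in myoepithelial cells, against 82.0 and 162 in luminal cells (5.07, SE 0.58), and Cyp4b1, a cytochrome P450, had 1868 and 3387 in myoepithelial cells, against 65.6 and 99.3 in luminal cells (4.77, SE 0.37). Both were also bright in duct basal cells, at means of 2128 and 4149. Gpx2, a glutathione peroxidase of epithelia, was lower, with 1206 and 291 in myoepithelial cells, against 5315 and 5524 in luminal cells (-3.16, SE 0.50, adjusted p = 0.00198, and -4.16 without array 1). Genes of ER translocation, folding and vesicle export did not lean to the secretory layer, with 12 of 70 tested members higher (leave-out counts 6, 6, 4 and 5) and 11 lower (leave-out counts 6, 3, 5 and 4) and a median of 0.06. Sec24d, a cargo adaptor of vesicles that carry collagen, had 924 and 926 in myoepithelial cells, against 49.4 and 106 in luminal cells (3.46, SE 0.55, adjusted p = 0.00195). Rab25, a recycling GTPase of epithelia, had 176 and 35.0 in myoepithelial cells, against 767 and 990 in luminal cells (-3.23, SE 0.53, adjusted p = 0.00219, and -4.23 without array 1). The secretory regulator Xbp1 (-0.86, with a leave-out p of 0.0957) was modestly lower.

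Markers of other cell types moved with the comparison. Of 23 myeloid and lymphoid markers tested 17 were higher in myoepithelial cells (leave-out counts 16, 10, 11 and 16) and 0 lower (median 2.77), and their summed signal was 11287 and 15001 in myoepithelial cells, against 1172 and 2373 in luminal cells. Lyz2, lysozyme of macrophages, had 2605 and 3889 in myoepithelial cells, against 105 and 427 in luminal cells (3.82, SE 0.76, adjusted p = 0.00557), and H2-Aa, of antigen presentation, had 1691 and 1993, against 71.8 and 212. Both myoepithelial arrays carried these transcripts. Their part in the calls of Csf1r, Csf1, Icam1, Grn (1.23), Cxcl16 (1.38) and other genes that myeloid cells also express was not tested. Grn and Cxcl16 had a leave-out p of 0.0592 and 0.0804. Of 11 fibroblast markers 2 were higher and 1 lower in myoepithelial cells, with a median of -1.09, and 5 lay at or below the 40th percentile on both myoepithelial arrays. Postn, periostin, had 19850 and 28037 in myoepithelial cells, against 162 and 343 in luminal cells (6.57, SE 0.54, adjusted p = 7.46e-05), and Dcn, decorin, had 11955 and 15302 in myoepithelial cells, against 490 and 1940 in luminal cells (3.77, SE 0.76). Lum, lumican, was the lower one, with 35.2 and 49.5 in myoepithelial cells, against 189 and 468 in luminal cells, and did not pass in any of the 4 fits without a gland array (leave-out p of 0.239). The summed signal of the list was 32906 and 44456 in myoepithelial cells, against 2446 and 6846 in luminal cells. Nearly all of the myoepithelial sum came from Postn and Dcn, and without these genes the sum was larger in luminal cells. Whether fibroblasts gave part of these signals was not tested. None of 11 endothelial markers passed, with Pecam1 at 12.7 and 3.1 in myoepithelial cells, against 12.5 and 4.0 in luminal cells, and a summed signal of 550 and 432, against 426 and 1162. Of 5 pericyte markers Mcam, Cspg4 (3.09) and Rgs5 (1.78) were higher (leave-out counts 1, 1, 1 and 2) and Notch3 (-2.45) lower in myoepithelial cells. Cspg4 and Rgs5 had a leave-out p of 0.168 and 0.253, and Rgs5 did not pass with the mean of its probe sets (adjusted p = 0.154). Whether pericytes gave part of the contractile or Rgs signals was not tested. Of 9 Schwann cell and melanocyte markers 5 were lower (leave-out counts 5, 2, 3 and 2), S100b among them, with 2706 and 453 in myoepithelial cells, against 10928 and 10711 in luminal cells (-3.27, and -4.54 without array 1, with a leave-out p of 0.0586).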

How the data were processed

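Total RNA of sorted paw pad cells was measured on 10 arrays, 2 for each of 5 populations, 4 of them used for the comparison. Per the submitters' processing notes, the deposited intensity values are MAS5 signal, with no version given. They are linear, and the mean without the highest and lowest 2% is 500 on every array. Detection calls were not used here. Of 22690 probe sets, 64 are controls, and the platform annotation gave 1 gene for 20380, several for 691 and no entry for 1555. Entrez identifiers of 20351 were found in a RefSeq table, and 0 symbols changed. Each gene was represented by its brightest probe set over the 10 arrays, and was tested if it exceeded the array's 40th percentile on 2 or more of the 10 arrays.

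Values were taken as log2(signal + 12), with no further normalization, and fitted with limma 3.58.1 in R 4.3.3, with all 10 arrays in 1 model, variances moderated along the mean, and Benjamini-Hochberg adjustment over all genes tested (threshold 0.05). The fit has 5 residual degrees of freedom. The fit was tested on simulated data with known changes. P-values measure only the spread between these arrays, whose number limits the precision. Named genes passed, differed at least 2-fold without overlap and were above the median of genes tested in the brighter layer (the 12 largest per direction, and up to 5 per list and direction), and further members are given to describe a list. The comparison, the 27 gene lists and their members were chosen with earlier results of these data known. Replicate numbers were not used as a block, since the labels describe no pairing. Deviations of same-numbered arrays correlated at 0.155 between myoepithelial and luminal cells. The correlations lay between 0.12 and 0.357 among all sweat populations and between 0.025 and 0.088 with epidermis. A fit with the replicate block was run as an alternative. Alternatives were other pseudocounts, filters, scaling, probe set rules and variance models, leaving out each array, and subtracting the luminal excess.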

Additional observations from a re-analysis of the deposited data

How the results depend on the processing

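The count of genes that passed, 2897, lay between 2555 (mean of probe sets) and 3357 (only the 4 gland arrays) under 9 of the planned changes of processing, with 3288 under the replicate block, and was 3108 (1398 higher, 1710 lower) when the luminal excess was subtracted from myoepithelial array 1. Quantile normalization gave 1357 higher and 1494 lower in place of 1540 and 1357. Leaving out 1 array at a time gave 1439 to 3454 genes, 836 to 1856 of them higher and 603 to 1599 lower, with 1439 without myoepithelial array 2, 1648 and 1593 without luminal arrays 1 and 2 and 2131 without myoepithelial array 1. Where an array of the pair is left out, the remaining array is assumed to vary like those of the other populations. List members that passed numbered 426, and 239 to 483 when 1 array was left out. Of the 473 list members and named genes that passed, 1 changed sign in 1 setting, Prkar1a, at 1.09 and at -0.17 with the mean of its probe sets, of which 1 had the opposite sign and passed. The number that no longer passed was 103 without myoepithelial array 1, 201 without array 2, 164 and 183 without luminal arrays 1 and 2, and at most 63 in the other settings. The luminal excess on myoepithelial array 1 was 16.3% of the luminal level, 15.5% with a 5-fold and 16% with a 20-fold choice of genes, and 13.7% for genes chosen against duct basal cells and epidermis, an alternative chosen after seeing the data. No depth can be given for arrays, and genes near background have imprecise differences.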
